A study of Schizosaccharomyces pombe with 80 samples.

Results

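The right subtelomere of chromosome II of fission yeast was taken as the last 100 kb of the chromosome, from position 4439804 to its end at 4539804. Its members were all H3K9me2 peaks that overlapped this window in the deposited peak lists. There were 483 such peaks of 7203 in all, found in 73 of 75 lists, and 447 of them came from immunoprecipitated samples and 36 from inputs. The member peaks ran from 51 bp to 60.5 kb in length with a median of 902 bp, and 262 of them (54.2%) were shorter than 1 kb. For comparison, the lists held 477 peaks in the first 100 kb of chromosome II, 619 in the first 100 kb of chromosome I and 486 in the last 100 kb of chromosome I.

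The samples came from chromatin immunoprecipitation and sequencing with an antibody to H3K9me2 in single isolates. Of these, 13 isolates were epe1delta tfs1DN, 15 were epe1delta with an empty vector, 12 were epe1delta ago1delta tfs1DN and 15 were seb1-1 epe1delta tfs1DN. All of these isolates and their parents lacked epe1 and were grown at 30 °C, and each isolate is 1 transformant. The tfs1DN allele stood at the leu1 locus beside an intact tfs1 gene, under the thiamine-repressible nmt1 promoter. The paper states that its experiments with epe1delta tfs1DN strains used thiamine, under which the promoter was repressed but leaky. A second experiment at 37 °C compared 2 pfs2-11 with 2 pfs2+ samples, for which the labels name no epe1 deletion and which are called wild type here. There were 7 parent lists and 9 inputs. The list of the parent of epe1 tfs1DN isolates 1 and 13 held no peak at all and was not used, which left 74 lists. By the labels, isolates of each genotype have parents and inputs of their own, and these sets are called batches here. Genotype and batch therefore cannot be told apart. The files do not say whether isolates were grown and processed on separate days, so the p-values measure the spread between these isolates.

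Fission yeast packs the ends of chromosomes I and II into heterochromatin, in which the methyltransferase Clr4 modifies histone H3 at the lysine measured here and proteins of the HP1 family bind the mark. The domain starts at the telomere and at the tlh helicase genes next to it, whose sequence resembles the centromeric repeats, and it spreads inward over neighbouring genes. Epe1, a JmjC-domain protein, opposes this spreading. Argonaute (Ago1) carries the small RNAs of the RNAi pathway, Seb1 binds nascent RNA and acts in transcription termination, Pfs2 is a subunit of the cleavage and polyadenylation machinery, and Tfs1 (TFIIS) restarts stalled RNA polymerase II, which the dominant-negative form cannot do.

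The inward edge of the domain fell at a few places in many lists. The contiguous reach used here is the distance from the chromosome end to the inward edge of the chain of peaks that starts nearest the end and has no gap over 5 kb. Among the 64 immunoprecipitated lists with a peak in the window, edges less than 500 bp apart formed 11 clusters. The most common edge lay between 42.7 and 44.3 kb from the end and was shared by 29 lists. The next held 10 lists at 34.4 to 35.5 kb, 6 lists at 47.6 to 48.1 kb and 5 lists at 50.8 to 51.1 kb. The reference sequence at these places is shown because they are where the chain of peaks ended. In some lists, further peaks lay inward of a gap over 5 kb. Each is 300 bases of the plus strand from RefSeq (ASM294v3), in which the chromosome has the same length as in the build of the lists (ASM294v2). Capitals mark the bases on the telomere side of the median edge of the cluster, which is known only as finely as the 1 kb smoothing of the reads allows.

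The edge of 29 lists is chrII:4496073-4496372, between genes, directly beside SPBPB2B2.15. The edge of 10 lists is chrII:4504645-4504944, in the coding exon of SPBPB2B2.19C. The edge of 6 lists is chrII:4491914-4492213, between protein-coding genes and across the non-coding RNA SPNCRNA.6633. The edge of 5 lists is chrII:4488769-4489068, in the coding exon of gal1, the galactokinase gene, where SPNCRNA.1697 overlaps.
edge at 43.6 kb: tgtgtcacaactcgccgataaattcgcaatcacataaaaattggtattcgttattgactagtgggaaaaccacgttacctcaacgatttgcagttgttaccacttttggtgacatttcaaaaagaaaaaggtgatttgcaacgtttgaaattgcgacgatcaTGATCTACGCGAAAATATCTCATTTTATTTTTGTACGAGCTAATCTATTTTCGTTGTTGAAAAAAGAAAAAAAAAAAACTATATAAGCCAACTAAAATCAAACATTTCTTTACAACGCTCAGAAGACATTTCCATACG
edge at 34.9 kb: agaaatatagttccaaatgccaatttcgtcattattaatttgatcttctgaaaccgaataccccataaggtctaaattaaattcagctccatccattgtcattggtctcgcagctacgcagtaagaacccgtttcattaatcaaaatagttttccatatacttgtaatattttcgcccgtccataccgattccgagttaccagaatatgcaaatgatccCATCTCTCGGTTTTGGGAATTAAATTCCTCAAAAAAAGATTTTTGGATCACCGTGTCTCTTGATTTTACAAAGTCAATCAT
edge at 47.7 kb: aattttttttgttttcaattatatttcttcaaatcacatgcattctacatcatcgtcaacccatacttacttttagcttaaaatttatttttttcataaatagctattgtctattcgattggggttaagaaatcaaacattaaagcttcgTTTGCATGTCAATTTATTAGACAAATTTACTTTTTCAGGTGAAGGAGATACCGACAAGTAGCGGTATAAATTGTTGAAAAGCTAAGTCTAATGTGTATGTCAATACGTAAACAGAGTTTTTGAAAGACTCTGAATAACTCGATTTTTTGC
edge at 50.9 kb: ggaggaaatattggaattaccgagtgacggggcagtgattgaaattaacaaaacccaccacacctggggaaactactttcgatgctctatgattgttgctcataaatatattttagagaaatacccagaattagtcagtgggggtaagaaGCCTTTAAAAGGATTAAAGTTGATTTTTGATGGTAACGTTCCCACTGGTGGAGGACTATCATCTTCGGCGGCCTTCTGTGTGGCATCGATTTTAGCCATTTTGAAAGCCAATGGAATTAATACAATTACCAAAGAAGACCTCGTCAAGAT

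The stretch below is shown because it lay under a peak in all 9 inputs, so that a peak there was no sign of H3K9me2 by itself. It is chrII:4532221-4532520, in the coding exon of tlh2, a RecQ-type helicase gene near the telomere, with SPNCRNA.6651 overlapping. It lies inside the 362 bp from 4532191 to 4532552 that every input list covered, and all of its bases are in capitals.
under a peak in every input: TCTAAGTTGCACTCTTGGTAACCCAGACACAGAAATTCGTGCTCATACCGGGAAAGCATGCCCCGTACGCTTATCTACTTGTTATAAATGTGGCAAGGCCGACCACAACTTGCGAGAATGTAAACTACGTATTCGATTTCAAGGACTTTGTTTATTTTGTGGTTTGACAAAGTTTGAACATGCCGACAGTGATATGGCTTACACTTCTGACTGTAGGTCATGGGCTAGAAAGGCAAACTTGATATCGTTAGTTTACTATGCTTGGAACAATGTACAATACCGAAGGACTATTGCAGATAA

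Across the genome, the telomere repeat GGTTACA, searched on both strands, was in 2.49% of 41905 windows of 300 bases and in 4.52% of those in the last 100 kb of chromosome II. The Atf1-Pcr1 site TGACGT was in 4.76% of all windows and in 3.92% of those in the last 100 kb. Neither run of letters was in any of the stretches printed above. The GC content of the edge sequences was 33.3% at 43.6 kb, 35.7% at 34.9 kb, 29% at 47.7 kb and 40.3% at 50.9 kb.

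Much of the region is repeated elsewhere, which bears on what a peak there measures. Of the runs of 50 bases in the window, 40.8% occurred more than once in the genome, with 69.9% in the outer 20 kb, 95.2% from 20 to 40 kb and 13.1% from 40 to 100 kb. Copies lay in the left end of chromosome I for 33.1% of the runs, in the left end of chromosome II for 20.8% and in the right end of chromosome I for 18.4%. The main block of repeated sequence reached 48 kb from the chromosome end, the farthest 1 kb step with at least 50% of its runs repeated. Farther in, 15.7% and 40.1% of the runs were repeated in the steps at 65 and 66 kb, 6.8% at 59 kb and 9.7% at 95 kb. A read that matched several places was given to 1 of them at random, so that in the repeated part the listed coverage is shared with the other ends. The median percentage of covered bases that lay in repeated sequence was 88.6% in epe1 tfs1DN, 80.6% in vector, 84.8% in epe1 ago1 tfs1DN and 83.5% in seb1-1 isolates.

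The first comparison asked how the domain differed between epe1 isolates with tfs1DN and with the empty vector. Vector isolates held a domain that reached beyond 40 kb with few gaps, while the domain of epe1 tfs1DN isolates was shorter and broken into many peaks. In epe1 tfs1DN isolates, a peak covered between 14.7 and 43.0 kb of the window with a median of 24.2 kb (n = 13). In vector isolates, the range was 44.2 to 64.9 kb with a median of 48.9 kb (n = 15). The groups did not overlap: the tfs1DN isolate with the most covered bases, isolate 13 at 43.0 kb, stood below the vector isolate with the fewest. The means were 25.3 ± 8.26 kb (SD, n = 13) and 51.4 ± 6.18 kb (SD, n = 15). The difference of -26.1 kb had an adjusted p of 3e-05 (two-sided permutation test of 100000 resamples, whose smallest unadjusted p is 1e-05, Benjamini-Hochberg over 6 comparisons).

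Both batches of epe1 tfs1DN isolates were below the vector isolates. Isolates 1 and 13 of the first batch held 37.9 and 43.0 kb. Isolate 13 is so numbered in its label, while its list carries the number 15, and it was used as the label gives it. The 11 isolates of the second batch held 14.7 to 29.9 kb (22.5 ± 5.10, SD), and their parent, without tfs1DN, held 22.8 kb, so that 6 of 11 isolates were above it. The vector parent held 56.4 kb, with 3 of 15 vector isolates above it. The parents thus differed in the same direction as their isolates. Both parents lacked epe1 and carried neither tfs1DN nor vector by their labels, and each belongs to the batch of its own isolates.

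**Figure D1:**
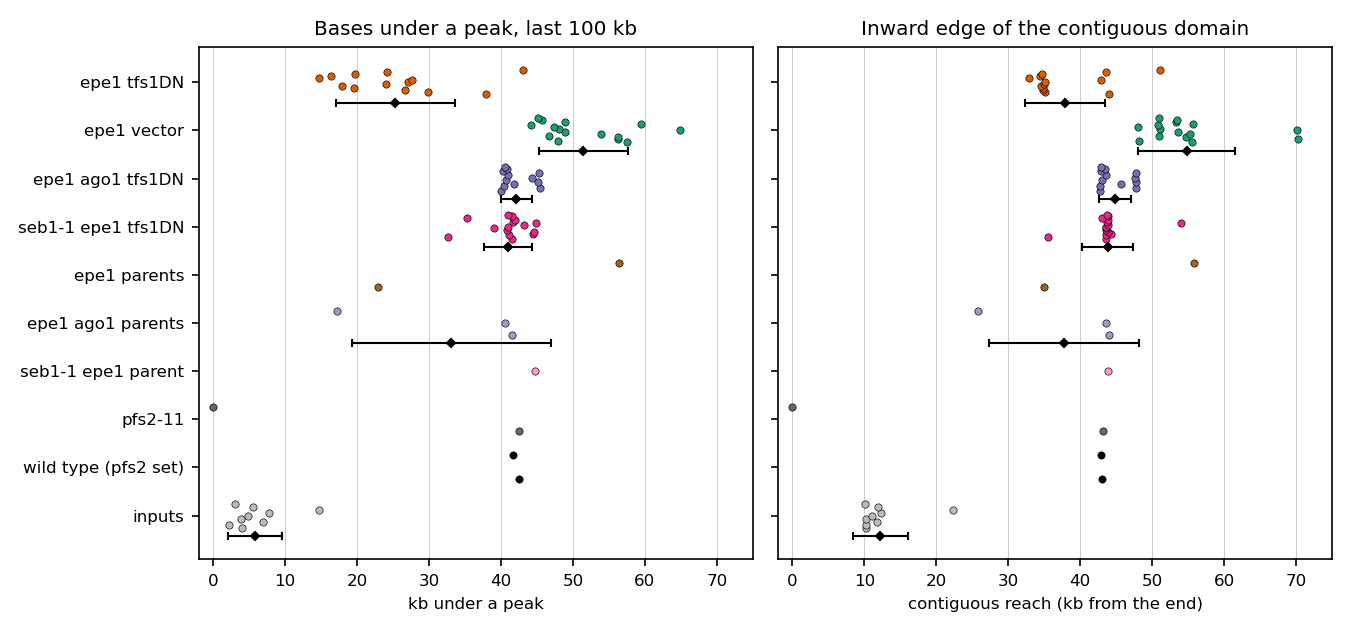
Each point is 1 library, plotted by the kb of the last 100 kb of chromosome II under a listed peak (left) and by the contiguous reach in kb from the chromosome end (right). Diamonds and bars are means ± SD of groups with at least 3 libraries. The epe1 vector isolates lie at 44.2 kb and above and the epe1 tfs1DN isolates at 43.0 kb and below in the left panel, and 1 pfs2-11 sample is at 0 in both.

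The depth and the peak threshold differed between these groups too. The authors listed a peak where its coverage was at least 3 times that of its chromosome. As a percentage of the coverage of the peaks at centromere 2, a constitutive heterochromatin domain, that limit stood at 44.5% on average in epe1 tfs1DN isolates (33.7 to 61.4%) and at 4.23% in vector isolates (2.82 to 7.77%). It stood at 30.0% in epe1 ago1 tfs1DN isolates (16.4 to 51.4%) and at 16.0% in seb1-1 isolates (10.9 to 21.0%). A stretch with a given share of the centromeric signal could therefore be listed in a vector isolate and not in an epe1 tfs1DN isolate. Keeping only peaks with at least 25% of the centromere 2 coverage, an alternative chosen after seeing the data, gave a difference of -21.1 kb (adjusted p = 3e-05, permutation test), but the limit of every tfs1DN list was already above 25%, so that the lists could not be brought to 1 limit. The mean fold over the chromosome of the peaks in the window was 9.31 ± 1.23 (SD, n = 13) in tfs1DN and 49.5 ± 8.23 (SD, n = 15) in vector isolates.

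The files give depth only as coverage. For chromosome II it was 3.43 to 12.5 reads per base in epe1 tfs1DN, 1.77 to 6.42 in vector, 13.4 to 34.5 in epe1 ago1 tfs1DN and 18.9 to 49.1 in seb1-1 isolates. In 14 lists, 12 of them of vector isolates, the chromosome II peaks held more coverage than the listed average times the chromosome length, so that the average was not a plain mean over all positions there. Covered kb rose with coverage among epe1 tfs1DN isolates (Pearson r = 0.785, adjusted p = 0.00684, Spearman rho = 0.692, adjusted p = 0.044, n = 13, permutation tests, Benjamini-Hochberg over 4 groups). Without the 2 isolates farthest from the median coverage, r was 0.697 (permutation p = 0.0242), and within the second batch it was 0.528 (permutation p = 0.0823, n = 11). Among vector isolates, r was 0.650 (adjusted p = 0.0169) and rho 0.414 (adjusted p = 0.171, n = 15, permutation tests). Without the 2 farthest vector isolates r was 0.435 (permutation p = 0.134), smaller but of the same sign. In epe1 ago1 tfs1DN isolates r was -0.589 (adjusted p = 0.0559, rho = -0.531, n = 12), and without the 2 farthest isolates it was -0.711 (permutation p = 0.0213). In seb1-1 isolates r was 0.154 (adjusted p = 0.571, rho = 0.111, n = 15), and 0.247 without the 2 farthest (permutation p = 0.416).

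**Figure D2:**
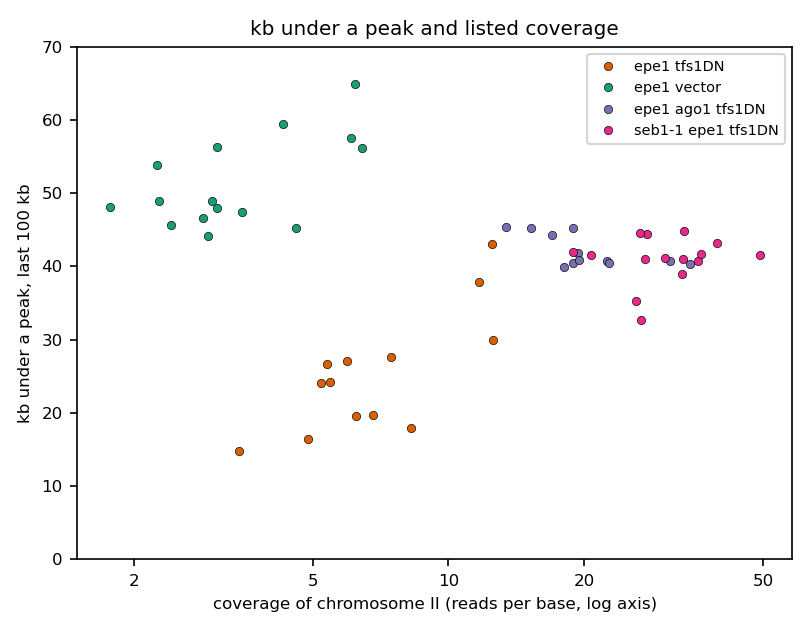
Each point is 1 isolate, with the listed coverage of chromosome II in reads per base on a log axis against the kb under a peak in the last 100 kb. The vector isolates, at 1.77 to 6.42 reads per base, lie above the epe1 tfs1DN isolates, at 3.43 to 12.5. The listed coverage was not a plain mean over positions in 12 of 15 vector lists, so that the coverage of these groups may not be on 1 scale.

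The contiguous reach gave the same order. In epe1 tfs1DN isolates it ran from 32.8 to 51.0 kb with a median of 35.0 kb, and in vector isolates from 48.0 to 70.3 kb with a median of 53.5 kb. Only isolate 13 of the tfs1DN group reached into the vector range. The means were 37.9 ± 5.54 kb (SD, n = 13) and 54.8 ± 6.72 kb (SD, n = 15), a difference of -16.9 kb (adjusted p = 6e-05, permutation test). With gaps of at most 1 kb the difference was -5.15 kb and did not pass (adjusted p = 0.601). In vector isolates 2, 4, 9, 11, 13, 14 and 15 the chain then ended 0.645 to 1.12 kb from the end. The longest peak of each lay inward of that and was not counted. The lowest reach of a tfs1DN isolate was 16.9 kb in this setting, which therefore does not compare the inward edges. The second-batch parent of the tfs1DN isolates reached 35.0 kb, with 5 of 11 isolates beyond it, and the vector parent reached 55.8 kb, with 2 of 15 beyond it.

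The edges of epe1 tfs1DN isolates fell mostly in 1 place. Of 13 isolates, 8 had a chain that ended at 34.4 to 35.5 kb, in or next to SPBPB2B2.19C, which encodes a protein with transmembrane helices. The chains of 3 ended at 42.7 to 44.3 kb, and those of the remaining isolates at 32.8 kb (isolate 9) and 51.0 kb (isolate 13). The edges at 34.4 to 35.5 kb depended on the gap rule. Isolates 2, 3, 4, 6, 7, 10 and 11 had peaks inward of a gap over 5 kb. With gaps of at most 10 kb they reached 42.3 to 57.2 kb. In the step at 42 kb, 11 of 13 isolates had a peak. Vector edges were spread wider, with 4 isolates at 50.8 to 51.1 kb in gal1, 3 at 53.4 to 54.0 kb, 1 at 54.7 kb and 3 at 55.3 to 55.8 kb in gal10 and tgd1, 2 at 47.6 to 48.1 kb, and 2 at 70.1 to 70.3 kb. The last are isolates 3 and 8, whose edges lay in SPBPB2B2.06C, annotated as a phosphoprotein phosphatase gene. The median edge of the group, at 53.5 kb, lay where gal10 (UDP-glucose 4-epimerase) and tgd1 (a nucleotide-sugar dehydratase) overlap.

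Between 20 and 40 kb from the end, each of the 15 vector isolates had a peak over all 20 kb, against 8.91 ± 5.03 kb (SD, n = 13) in epe1 tfs1DN isolates. In the outer 20 kb the covered length was 13.8 ± 2.14 kb in tfs1DN and 18.7 ± 0.36 kb in vector isolates. From 40 to 60 kb it was 2.54 ± 2.46 kb and 10.4 ± 3.72 kb. Beyond 60 kb, epe1 tfs1DN isolates held almost nothing. Vector isolates held 2.02 ± 2.28 kb from 60 to 80 kb (0 to 5.93 kb) and 0.281 ± 0.572 kb from 80 to 100 kb. In tfs1DN isolates no peak lay from 60 to 80 kb, and isolate 8 alone had one farther in, of 0.346 kb.

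**Figure D3:**
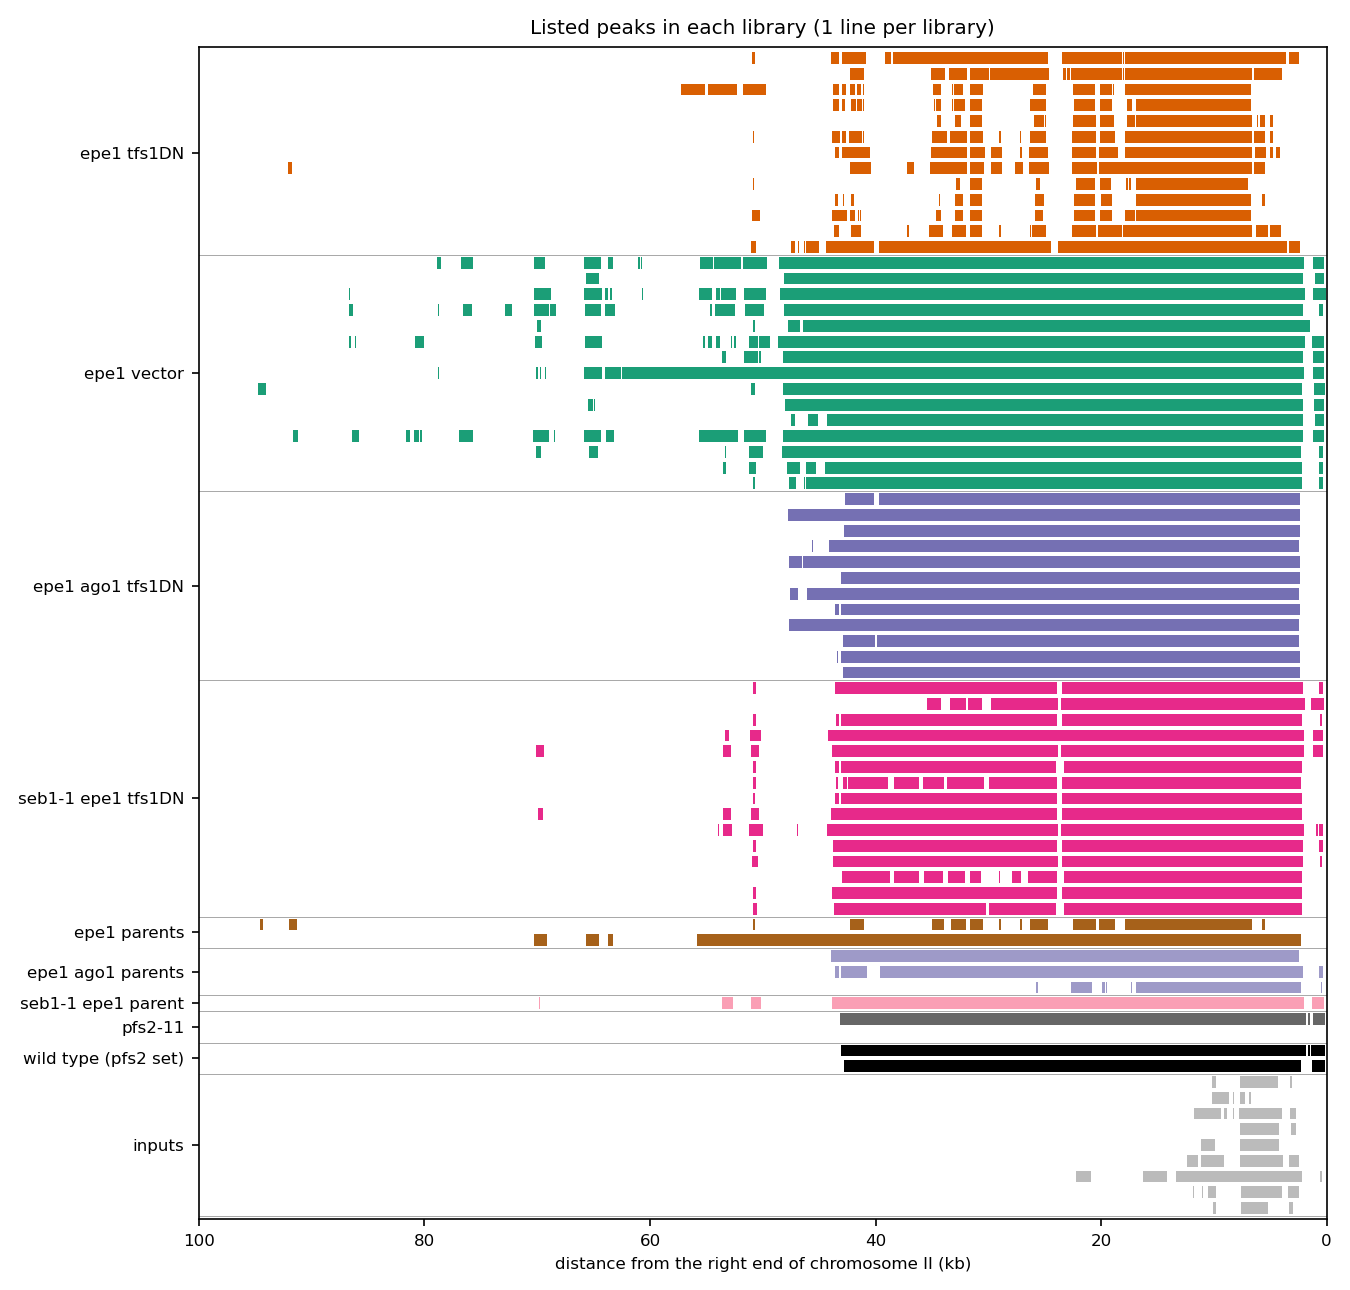
Each line is 1 library and each bar a listed peak, drawn by its distance in kb from the right end of chromosome II, with isolates ordered by number from the top of each group. The epe1 tfs1DN lines are broken by gaps that recur at 22.6 to 24.8 kb, the vector lines run from a gap at 1.2 to 2.1 kb to beyond 40 kb with scattered peaks farther in, and 1 pfs2-11 line is empty.

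Gaps inside the contiguous chain were most frequent in epe1 tfs1DN isolates, with 9.15 ± 2.12 gaps and 9.28 ± 3.69 kb of gap per isolate (SD, n = 13). Vector isolates had 4.47 ± 2.50 gaps and 4.72 ± 3.17 kb (SD, n = 15). The gaps lay at the same places in many isolates. In epe1 tfs1DN isolates, every position from 22.6 to 24.8 kb was without a peak in 8 to 13 of 13 isolates, from 26.3 to 28.8 kb in 7 to 10 and from 17.9 to 18.8 kb in 7 or 8. In vector isolates, the gaps common to most lay at 48.3 to 50 kb (7 to 12 of 13 isolates whose chain passed there), at 51.7 to 52.3 kb (6 to 8 of 9) and at 1.2 to 2.1 kb (8 to 14 of 14 or 15). The first of these lies just inward of the main block of repeated sequence and reaches into gal1.

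The outer end of the domain differed as well. In vector isolates the outermost peak ended 27 to 1494 bp before the chromosome end (median 228), and in epe1 tfs1DN isolates 2359 to 6957 bp before it (median 4772). These ranges did not overlap. The tfs1DN isolates of the first batch, 1 and 13, ended at 2409 and 2359 bp, and those of the second at 3986 bp or more. The matched inputs differed too. Their outermost peak ended at 2443 bp for vector, 448 bp for seb1-1, and 3034 and 6745 bp for the first and second tfs1DN batches. How much of the difference goes with batch or input was not tested. The outermost peak of epe1 ago1 tfs1DN isolates ended 2336 to 2445 bp from the end, and that of seb1-1 isolates 216 to 2239 bp from it. The longest peak of a vector isolate ran over 60.5 kb in isolate 8, from 4477339 to 4537799, with a fold of 62.2 over the chromosome coverage. The longest of an epe1 tfs1DN isolate ran over 20.3 kb in isolate 13, from 4515987 to 4536296, with a fold of 9.88.

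The annotation places 88 genes in the window, of which 58 are non-coding RNAs, 26 are protein-coding and 4 are pseudogenes. A peak overlapped 75 of them in at least 1 vector isolate and 50 in at least 1 epe1 tfs1DN isolate. For each gene, the isolates whose peaks overlapped it were counted and compared by Fisher's exact test, and p-values were adjusted over all genes tested in the genome. Of 75 window genes tested, 23 had a peak more often in vector isolates and 0 in epe1 tfs1DN isolates, for which the count at an unadjusted p under 0.05 was 0 too. Over the genome, 35% of 1582 genes tested passed, 11.6% with more peaks in vector and 23.4% with more in tfs1DN isolates. Neighbouring genes often lie under 1 peak, so these counts are not of independent genes.

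**Figure D4:**
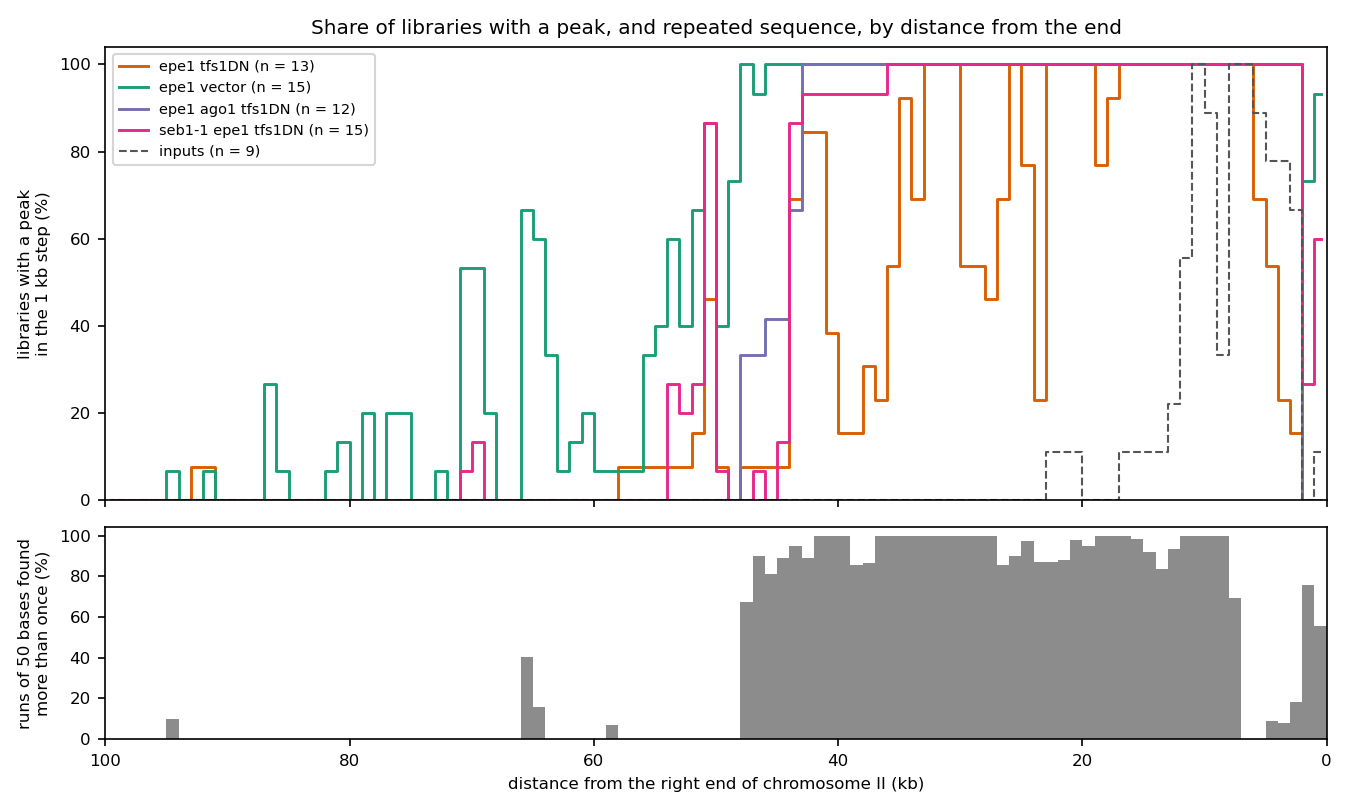
The upper panel gives, for each 1 kb step from the chromosome end, the percentage of isolates of a group (or of the 9 inputs, dashed) with a peak in that step. The lower panel gives the percentage of runs of 50 bases found more than once in the genome. The farthest step in which all isolates had a peak was at 48 kb in vector, 43 kb in epe1 ago1 tfs1DN, 36 kb in seb1-1 and 33 kb in epe1 tfs1DN isolates, with 45, 41, 34 and 19 such steps in all, and all input peaks lie within 22.2 kb of the end.

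Among the genes, those with the smallest p lay in the gaps and at the edges. Distances are from the outer end of a gene to the chromosome end. SPBCPT2R1.05C, a pseudogene 24.4 kb from the end, had a peak in 1 of 13 epe1 tfs1DN and 15 of 15 vector isolates (adjusted p = 1.19e-05, Fisher's exact test). The same counts and adjusted p held for SPNCRNA.6635, at 39.6 kb, and for the uncharacterized gene SPBPB2B2.14C, at 46.5 kb. SPNCRNA.6662 and SPNCRNA.6663, 0.495 and 0.427 kb from the end, and SPNCRNA.6633, at 47.6 kb, had a peak in 0 of 13 and 14 of 15 (adjusted p = 1.82e-05). SPNCRNA.6657, SPNCRNA.6658 and SPNCRNA.6659, at 2.31 to 2.89 kb, and SPNCRNA.6636, at 37.3 kb, had one in 2 of 13 and 15 of 15 (adjusted p = 4.35e-05). The protein-coding gene ftm7 and SPNCRNA.448 tied with them at the same counts. The matched inputs differ at SPNCRNA.6657, SPNCRNA.6658 and SPNCRNA.6659: the vector input had a peak there, from 4536460 to 4537361, and the input of the second tfs1DN batch had none. Over all 9 inputs these RNAs had a peak in 7, 7 and 5. Transcripts that overlap each other share the same peaks.

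The galactose genes lie just inward of the main block of repeated sequence, and their peaks were patchy. The galactokinase gene gal1 had a peak in 6 of 13 epe1 tfs1DN and 13 of 15 vector isolates, which did not pass (adjusted p = 0.106, Fisher's exact test). For gal10 and tgd1, which overlap and share their peaks, the counts were 1 of 13 and 9 of 15 (adjusted p = 0.0192). The galactose-1-phosphate uridylyltransferase gene gal7 had a peak in 1 isolate of each group. Farther in, SPBPB2B2.06C and the uncharacterized SPBPB2B2.07C had a peak in 8 and 10 of 15 vector isolates and in no tfs1DN isolate (adjusted p = 0.00883 and 0.00133). SPBPB2B2.07C lies in the partly repeated steps at 65 and 66 kb. The innermost genes with a peak were nc-pho1, a non-coding RNA known to repress the phosphatase gene pho1, in isolate 8 of the tfs1DN group, and prt2, a non-coding RNA that overlaps the phosphate transporter gene pho84, in 1 vector isolate. The tlh2 gene had a peak in every isolate of all 4 genotypes and in all 9 inputs.

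The second comparison asked how the domain differed without Argonaute. Isolates with epe1 ago1 tfs1DN held a compact and almost unbroken domain that ended at about 43 or 48 kb in nearly all of them. A peak covered 39.98 to 45.4 kb with a median of 40.9 kb (n = 12). Of the epe1 tfs1DN isolates, only isolate 13 was above 40 kb. The mean was 42.1 ± 2.20 kb (SD, n = 12), 16.9 kb above the epe1 tfs1DN isolates (adjusted p = 4e-05, permutation test). The reach ran from 42.7 to 47.8 kb with a median of 43.5 kb and a mean of 44.8 ± 2.25 kb (SD, n = 12), 6.91 kb farther than in epe1 tfs1DN isolates (adjusted p = 0.0027, permutation test). This order depended on the gap allowed: with gaps of at most 10 kb the difference was -0.42 kb (adjusted p = 1), and with any gap it was -5.59 kb (adjusted p = 0.186), since the tfs1DN isolates had detached peaks farther in and the ago1 isolates had none.

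The isolates fell into 7 with an edge at 42.7 to 44.3 kb, 4 at 47.6 to 48.1 kb and 1 at 45.6 kb. The group median, at 43.5 kb, lay 71 bp from SPBPB2B2.15, which encodes a protein with a Vel1p domain. They had 0.92 ± 0.90 gaps and 0.293 ± 0.438 kb of gap per isolate, and 0 peaks beyond the chain. The longest peak ran over 45.4 kb in isolate 2, from 4492038 to 4537432, with a fold of 14.1. In the outer 20 kb they held 17.6 ± 0.03 kb, from 20 to 40 kb 19.97 ± 0.09 kb and from 40 to 60 kb 4.56 ± 2.18 kb (SD, n = 12). Coverage per covered base relative to the centromere 2 peaks was 0.40 ± 0.49 on the log2 scale, against 0.43 ± 0.40 in epe1 tfs1DN isolates (difference -0.02, adjusted p = 0.89, permutation test). With peaks that overlapped an input peak left out, the difference was -0.60 (adjusted p = 0.00032, permutation test), with a value in only 6 ago1 isolates. That setting drops whole peaks, so that the peak over tlh2, which held most of the domain in ago1 isolates, was left out. The value then rests on the small peaks that remained and does not describe the domain. Both values count listed peaks only, and the limit of 3 differs between lists. The centromere 2 signal was not a fixed measure either. Its peaks stood at 14.9 to 18.3 times the chromosome coverage in set 1 of the ago1 isolates and at 5.83 to 8.65 times in set 3. The paper states that RNAi mutants and seb1-1 each lower H3K9me at pericentromeres, so that the ratio can change through its denominator.

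Of 51 window genes tested, 13 had a peak more often in epe1 ago1 tfs1DN isolates and 0 in epe1 tfs1DN isolates, against 5.12% and 19.1% of 1505 genes over the genome (24.2% in both directions, Fisher's exact test). At an unadjusted p under 0.05, 2 genes had more peaks in epe1 tfs1DN isolates, gal1 and the overlapping SPNCRNA.1697. With 0 of 12 ago1 isolates against 6 of 13, gal1 did not pass (adjusted p = 0.0534). SPBCPT2R1.05C and SPNCRNA.6635 had a peak in 12 of 12 ago1 isolates and 1 of 13 tfs1DN isolates (adjusted p = 0.000127). A group of 6 genes at 12 of 12 against 2 of 13 (adjusted p = 0.000362) held SPNCRNA.6657, SPNCRNA.6658 and SPNCRNA.6659 near the end and SPNCRNA.6636, SPNCRNA.448 and ftm7 at 37.3 to 38.6 kb. The RNAs near the end also had a peak in 2 of the 3 ago1 inputs. The ftm7 gene encodes a protein with a transmembrane helix. SPBPB2B2.18, uncharacterized, had a peak in 12 of 12 and 4 of 13 (adjusted p = 0.00298), and SPNCRNA.6656, at 4.16 kb, in 12 of 12 and 5 of 13 (adjusted p = 0.00818). The innermost gene with a peak was SPNCRNA.6633, in 3 of 12 isolates.

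The epe1 ago1 parents did not resemble each other. The set 1 and set 2 parents held 41.5 and 40.6 kb and reached 43.9 and 43.6 kb, and the set 3 parent held 17.1 kb and reached 25.8 kb. The isolates of set 1 held 43.5 ± 2.44 kb (n = 3, 2 above their parent), those of set 2 held 41.7 ± 2.13 kb (n = 5, 3 above) and those of set 3 held 41.7 ± 2.32 kb (n = 4, 4 above). In the list of the set 3 parent the limit of 3 stood at 96.5% of its centromere 2 coverage, and its left end of chromosome II held 0.901 kb. The centromere 2 peaks of this parent stood at 3.11 times the chromosome coverage, against 18.5 times in the set 1 and 5.12 times in the set 2 parent. The percentage was thus high because the centromere 2 signal was low. The paper reports epe1 ago1 strains with ectopic heterochromatin at clr4 and lower H3K9me at constitutive loci, where heterochromatin formed after tfs1DN integration. Whether the set 3 parent was in that state was not tested. All 12 isolates against the 3 parents differed by 9.05 kb (adjusted p = 0.0923, exact permutation test, smallest p possible 0.0022) and by 7.04 kb in reach (adjusted p = 0.0949, exact permutation test). Without the set 3 parent these differences were 1.07 and 1.03 kb. At a fold of at least 4.5 they were 10.5 kb (adjusted p = 0.0495) and 10.7 kb (adjusted p = 0.0369, exact permutation tests).

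The third comparison asked the same of isolates with the seb1-1 allele. Their domain was again longer and less broken than that of epe1 tfs1DN isolates, with 1 narrow gap in nearly all of them and small separate peaks over gal1. A peak covered 32.7 to 44.8 kb with a median of 41.6 kb (n = 15), and isolates 2 and 13, at 32.7 and 35.3 kb, stood below the rest. The mean was 41.0 ± 3.31 kb (SD, n = 15), 15.7 kb above the epe1 tfs1DN isolates (adjusted p = 3e-05, permutation test). The matched input of the seb1-1 isolates stood apart, with 14.7 kb under a peak and a reach of 22.2 kb, against 2.12 to 7.69 kb and 10.1 to 12.4 kb in the other 8 inputs. When bases under a peak of the matched input were not counted, seb1-1 isolates held 26.4 ± 3.29 kb and epe1 tfs1DN isolates 22.9 ± 7.69 kb, and the difference of 3.48 kb did not pass (adjusted p = 0.146, permutation test). This count takes 14.7 kb from each seb1-1 list that covers the outer domain, and only 2.12 kb (second batch) or 3.95 kb (first batch) at most from a tfs1DN list.

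The reach of seb1-1 isolates ran from 35.5 to 54.0 kb with a median of 43.7 kb and a mean of 43.8 ± 3.53 kb (SD, n = 15). It was 5.91 kb farther than in epe1 tfs1DN isolates (adjusted p = 0.00588, permutation test). The difference was 5.49 kb with gaps of at most 1 kb (adjusted p = 0.44) and 1.84 kb with any gap (adjusted p = 0.84), neither of which passed. With gaps of at most 1 kb, the chains of seb1-1 isolates 1, 3, 8, 11 and 12 ended 0.538 to 0.688 kb from the end, before their long peaks. Of 15 isolates, 13 had their edge at 42.7 to 44.3 kb, so that this cluster held most of the group. Isolate 2 stopped at 35.5 kb, among the tfs1DN edges, and isolate 10 at 54.0 kb. The parent reached 43.9 kb and held 44.7 kb, which only 1 of 15 isolates exceeded.

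All 15 seb1-1 isolates had a chain across 23.5 to 23.9 kb, and 8 to 14 of them lacked a peak there, depending on the position. This narrow gap lies inside the wider one of the epe1 tfs1DN isolates. They had 3.47 ± 2.67 gaps and 2.28 ± 2.21 kb of gap per isolate (SD, n = 15). The longest peak ran over 42.2 kb in isolate 4, from 4495547 to 4537790, with a fold of 24.6, and that of the parent over 41.9 kb. Coverage relative to the centromere 2 peaks was -0.04 ± 0.10 on the log2 scale (SD, n = 15), 0.46 lower than in epe1 tfs1DN isolates (adjusted p = 0.00033, permutation test). With peaks that overlapped an input peak left out, the sign turned, to 0.81 higher in seb1-1 isolates (adjusted p = 0.000165, permutation test). That setting drops the whole peak over tlh2 from every list of both groups. Either value counts listed peaks only, and their limit was lower in seb1-1 lists, at 10.9 to 21.0% of the centromere 2 coverage against 33.7 to 61.4%. The denominator differed too. The centromere 2 peaks stood at 14.3 to 27.5 times the chromosome coverage in seb1-1 and at 4.89 to 8.90 times in epe1 tfs1DN isolates.

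Of 53 window genes tested, 17 had a peak more often in seb1-1 isolates and 0 in epe1 tfs1DN isolates, for which the count at an unadjusted p under 0.05 was 0 as well. Over the genome the figures were 13.1% and 24.1% of 1508 genes (37.2% in both directions, Fisher's exact test). SPBCPT2R1.05C had a peak in 15 of 15 against 1 of 13 (adjusted p = 1.01e-05), and ftm7 in 14 of 15 against 2 of 13 (adjusted p = 0.000383). SPNCRNA.6657, SPNCRNA.6658 and SPNCRNA.6659 had one in 15 of 15 against 2 of 13 (adjusted p = 4.28e-05), and SPNCRNA.6635 in 14 of 15 against 1 of 13 (adjusted p = 9.33e-05). This comparison and the one without Argonaute use the same epe1 tfs1DN isolates. SPNCRNA.6636 and SPNCRNA.448 shared the counts of ftm7, and SPNCRNA.6655 and SPNCRNA.6656, at 5.03 and 4.16 kb, had a peak in 15 of 15 against 5 of 13 (adjusted p = 0.00171). The matched input had a peak over the outer of these genes too, as SPNCRNA.6657 had one in 7 of 9 inputs. In the galactose cluster, gal1 had a peak in 13 of 15 seb1-1 isolates (adjusted p = 0.1 against tfs1DN), gal10 in 4 of 15 and gal7 in 0. The innermost gene with a peak was SPBPB2B2.06C, in 2 of 15.

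Isolates of 1 genotype differed from each other to an unequal degree. The mean absolute deviation of covered kb from the group median was 6.15 kb in epe1 tfs1DN, 4.80 kb in vector, 1.68 kb in epe1 ago1 tfs1DN and 2.10 kb in seb1-1 isolates. The spread of the tfs1DN isolates did not differ from that of vector isolates beyond chance (adjusted p = 0.481), and it was larger than that of ago1 and of seb1-1 isolates (adjusted p = 0.0147 for both, permutation tests, Benjamini-Hochberg over 3). Part of it lay between the batches of tfs1DN isolates. Within the second batch alone, an alternative chosen after seeing the data, the differences were -2.61 kb for ago1 (adjusted p = 0.0252) and -2.18 kb for seb1-1 isolates (adjusted p = 0.0796, permutation tests). Against vector isolates the sign turned, to a difference of -0.51 kb (adjusted p = 0.751).

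When only bases in sequence found once in the genome were counted, also chosen after seeing the data, the epe1 tfs1DN isolates held 3.44 ± 2.20 kb (SD, n = 13) and the vector isolates 12.1 ± 5.57 kb (SD, n = 15), a difference of -8.64 kb (p = 1e-05, permutation test). The epe1 ago1 tfs1DN isolates held 6.34 ± 0.23 kb, 2.91 kb above the tfs1DN isolates (p = 0.00041), and the seb1-1 isolates held 7.03 ± 0.88 kb, 3.59 kb above them (p = 3e-05, permutation tests). In sequence whose reads have 1 place, the means of seb1-1 and ago1 isolates again lay between those of tfs1DN and vector isolates. Here seb1-1 lay above ago1 isolates, where the order over all bases was the other way round. Inputs held such bases too, 3.29 ± 1.42 kb (SD, n = 9). The matched inputs held 5.26 kb for seb1-1, 4.18 kb for vector, and 3.13 and 0.18 kb for the first and second tfs1DN batches. Those of ago1 isolates held 3.03 to 3.75 kb. This count was not corrected for the inputs, so that it does not separate the order of the isolates from that of their inputs. Relative to the centromere 2 peaks, the coverage of the covered bases was 1.35 in epe1 tfs1DN and 0.661 in vector isolates (geometric means). On the log2 scale they were 0.43 ± 0.40 and -0.60 ± 0.23, a difference of 1.03 (adjusted p = 3e-05, permutation test). These means count listed peaks only. Their limit stood at 33.7 to 61.4% of the centromere 2 coverage in tfs1DN lists and at 2.82 to 7.77% in vector lists. Weaker bases were counted in vector lists alone, so that a higher ratio in tfs1DN lists is partly built in. The difference turned to -0.80 with peaks that overlapped an input peak left out, where only 5 vector isolates kept a value. That setting drops whole peaks, among them the peak over tlh2, which held most of the domain in vector isolates.

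Fewer kb lay under a peak in the first 100 kb of the same chromosome than in the last 100 kb in every group of isolates. Vector isolates held 51.4 ± 6.18 kb at the right and 32.2 ± 6.81 kb at the left end, 19.2 ± 4.66 kb more at the right (15 of 15 isolates, adjusted p = 0.00014). In epe1 tfs1DN isolates the left end held 9.03 ± 5.09 kb and the difference was 16.3 ± 4.49 kb (13 of 13, adjusted p = 0.00024). It was 19.8 ± 3.55 kb in epe1 ago1 tfs1DN (12 of 12, adjusted p = 0.00052) and 19.4 ± 1.87 kb in seb1-1 isolates (15 of 15, adjusted p = 0.00014). All of these are sign-flip permutation tests over isolates with Benjamini-Hochberg adjustment over the 4 groups. The tests compare ends of unlike reference sequence. No run of 50 bases from the outer 20 kb of the right end occurred in the left end of chromosome II. Most runs from 20 to 40 kb did occur there, and most of the outer runs occurred in the left end of chromosome I. How much of the difference in kb comes from this was not tested.

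**Figure D5:**
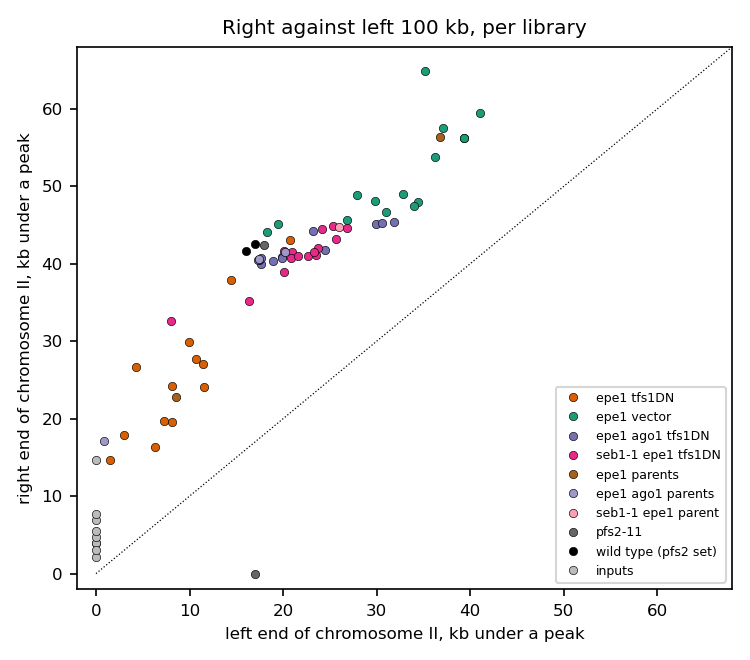
Each point is 1 library, with kb under a peak in the first 100 kb of chromosome II on the horizontal and in the last 100 kb on the vertical axis, and equal values on the dotted line. Every isolate lies above the line, and pfs2-11 replicate 2 lies below it, at 17.0 kb on the left and 0 on the right.

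The pfs2 samples were compared at 37 °C. The wild-type samples held 42.5 and 41.6 kb and reached 43.0 and 42.8 kb, with their edges in SPBPB2B2.15. The pfs2-11 replicate 1 held 42.5 kb and reached 43.1 kb, in the same place, as a peak of 41.3 kb from 4496691 to 4538000 with a fold of 31.3 and smaller peaks at the end. The list of pfs2-11 replicate 2 held no peak in the window at all. That list was not empty, since it held 20 peaks, 17.0 kb of them at the left end of chromosome II and 35.8 kb at the left end of chromosome I, where the other 3 samples held 16.0 to 18.0 kb and 35.6 to 37.3 kb. The difference of -20.8 kb had p = 0.667 (exact permutation test), where 2 against 2 samples cannot give a p below 0.333. Without replicate 2 the difference was 0.402 kb in covered length and 0.181 kb in reach.

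Vector isolates, which lack epe1, were also set against the wild-type samples, which were grown at another temperature and in another batch, so that genotype, temperature and batch cannot be told apart. All 15 vector isolates, at 44.2 kb and above, exceeded both wild-type samples, by 9.34 kb on average (adjusted p = 0.0662, exact permutation test). In reach the difference was 11.9 kb, again without overlap (adjusted p = 0.0221, exact permutation test). That call was lost without vector isolate 3 or 8 or either wild-type sample, where the difference was 10.7 to 11.9 kb, and at a fold of at least 4.5, where it was 5.75 kb. Within 50 kb of the end, the vector isolates held 4.68 kb more (adjusted p = 0.011).

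The inputs, which carry no antibody selection, held peaks in the same outer stretch. Covered length was 2.12 kb at the lowest, 4.78 kb at the median and 14.7 kb at the highest (n = 9), with mean folds of 3.60 to 5.44. A total of 23 window genes had a peak in at least 1 input and 3 in every input, tlh2 among them. The median input edge, at 11.1 kb, lay inside tlh2, and the innermost gene was SPNCRNA.6640, in 1 input. No input had a peak beyond 22.2 kb, so that the edges of the immunoprecipitated samples at 32.8 kb and beyond lay outside all input peaks. Bases from 4532935 to 4533059, which is 125 bp, lay under a peak in every input as well.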

How the data were processed

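H3K9me2 immunoprecipitations and inputs were analysed. Polymerase II samples, 5 of 80, were not analysed here. The authors removed adaptors, omitted reads under 20 nt, aligned the rest with Bowtie (a read with several places was given 1 at random) and smoothed them over 1 kb. SAMtools and bedtools are named in the submitters' notes, with no version. Each deposited list gives, per peak of 1 library, the signal as coverage that the authors averaged per peak and per chromosome, with no correction for input. Fold is their ratio, and the smallest among the members was 3.01. Positions are ASM294v2, counted from 1. Gene names are from ASM294v3, whose chromosomes have the same lengths.

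Covered kb, reach (gaps up to 5 kb), gaps and overlapped genes were computed per list with Python 3.11.15, numpy 2.4.6, pandas 2.3.3 and scipy 1.17.1. Means were compared with two-sided permutation tests, exact where a group had fewer than 10 samples, and genes with Fisher's exact test, with Benjamini-Hochberg adjustment at 0.05. The gene test was checked on simulated data for epe1 tfs1DN against vector over 1582 genes, where it recovered 98.3% of 200 changed genes over 20 repeats and called 0.195% of the others. These rates describe the simulated data and not the error in the real lists, where genotype and batch cannot be told apart. Alternatives changed the fold, peak length, gap, window, input, batch and replicate block.

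Genes were named by rule: the up to 10 with the smallest p per comparison, a fixed list (tlh2, gal1, gal7, gal10), those at the median edges and the innermost per group. For peaks it was the longest per group. Some genes beside these were named after their values were seen (SPBPB2B2.06C and SPBPB2B2.07C in vector isolates, tgd1, which overlaps gal10, and SPNCRNA.1697). The window, lists and tests were chosen with earlier results of these data known. Each pfs2-11 replicate shares an input with the wild type of its number by the labels, and the correlation of their deviations over the window was 0.121. The labels title the second-batch parent for isolates 2 to 11, and isolate 12 was taken with it.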

Additional observations from a re-analysis of the deposited data

Results flagged for a closer look

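In groups of 4 to 10 samples, the highest and lowest values of covered length, reach, mean fold and coverage relative to centromere 2 were compared with Dixon's 95% limit for the gap to the nearest other sample. Chance alone exceeds this limit in about 1 in 20 groups. The input of the seb1-1 isolates (input 7) was far above the other 8 in covered length (14.7 kb), in reach (22.2 kb) and in mean fold (5.44). In set 3 of the epe1 ago1 tfs1DN isolates, isolate 5 was far above the other 3, with 45.2 kb covered and a reach of 47.7 kb. Its edge is in the cluster at 47.6 to 48.1 kb, which isolates 2 and 7 of set 1 and isolate 9 of set 2 share.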

How the results depend on the processing

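Of 134 alternatives to 29 results, other than leaving out 1 sample, 105 kept the direction and the side of the threshold, 15 lost the call, 7 gained one and 7 reversed. Of 315 that left out 1 sample, 309 kept both, 4 lost the call and 2 reversed. The lost calls include those with 1 wild-type sample left against the vector isolates, where no call was possible. The causes were not tested beyond what an alternative's construction shows. Alternatives chosen after seeing the data were the limit of 25% of centromere 2 coverage, sequence found once, and the second batch alone for the spread and for the correlation with coverage.

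For covered kb, seb1-1 against epe1 tfs1DN isolates fell to 3.48 kb (adjusted p = 0.146, permutation test) without bases under an input peak. The ago1 isolates against their parents became 10.5 kb at a fold of at least 4.5 and 9.30 kb without input bases (adjusted p = 0.0495 for both, exact permutation tests). Vector isolates against wild type became 4.68 kb in a window of 50 kb (adjusted p = 0.011, exact permutation test). Reach depended most on the gap allowed. With gaps of at most 1 kb, it became -5.15 kb for tfs1DN against vector, 5.49 kb for seb1-1 against tfs1DN, 29.6 kb for ago1 isolates against parents and 5.33 kb for vector against wild type. In that setting a chain could end before the long peaks. The lowest reach was 0.645 kb in vector, 0.538 kb in seb1-1, 0.541 kb in ago1 parent and 1.285 kb in wild-type lists, against 16.9 kb in tfs1DN lists. With gaps of at most 10 kb, reach became -0.42 kb for ago1 against tfs1DN, 4.81 kb for seb1-1 against tfs1DN and 20.6 kb for vector against wild type. With any gap it became -5.59 kb for ago1 and 1.84 kb for seb1-1 against tfs1DN. At a fold of at least 4.5 it became 10.7 kb for ago1 isolates against parents and 5.75 kb for vector against wild type. At 25% of centromere 2 coverage it became 3.39 kb for seb1-1 against tfs1DN and 5.52 kb for vector against wild type. As medians it became -0.13 kb for ago1 isolates against parents and 10.6 kb for vector against wild type.

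The spread of tfs1DN against vector isolates became -0.51 kb in the second batch. For seb1-1 isolates it became -2.18 kb there and -2.04 kb at a fold of at least 4.5, and for ago1 isolates -2.99 kb at that fold. Coverage relative to centromere 2, without peaks that overlap an input peak, became -0.80 for tfs1DN against vector (13 against 5 lists), -0.60 for ago1 against tfs1DN (6 against 13) and 0.81 for seb1-1 against tfs1DN, and as a plain mean over peaks 0.14 for ago1 against tfs1DN. Leaving out peaks that overlap an input peak drops the whole peak over tlh2 from every isolate. The correlation of tfs1DN isolates with coverage was 0.528 in the second batch. At a fold of at least 4.5, 22 window genes had more peaks in ago1 than in tfs1DN isolates, among them all 13 called before.

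Leaving out 1 sample at a time, covered kb ranged from -27.6 to -25.2 for tfs1DN against vector, from 16.0 to 18.3 for ago1 and from 14.8 to 17.2 for seb1-1 against tfs1DN, from 1.07 to 13.3 for ago1 isolates against parents, from -42.1 to 0.402 for pfs2-11 and from 8.38 to 9.86 for vector against wild type. Reach ranged, in the same order, from -18.0 to -15.8, from 6.49 to 8.002, from 5.19 to 7.01, from 1.03 to 10.1, from -42.9 to 0.181 and from 10.7 to 12.3 kb. The spread ranged from 0.284 to 2.14 for vector, from -4.98 to -3.41 for ago1 and from -4.55 to -2.98 for seb1-1 comparisons.

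Isolate numbers paired no isolates across groups: same-number isolates had median correlations of -0.0782, -0.0101 and -0.153, and 0, 0 and 1 of them correlated best with their own number. With the replicate number as a block, covered kb differed by -27.1, 18.3 and 15.6 in the comparisons of tfs1DN with vector, ago1 and seb1-1 isolates, and with the set as a block by 9.20 for ago1 isolates against parents. For pfs2-11 the paired difference was -20.8 kb (p = 0.5, exact permutation test). The block in reach gave -17.3, 8.002, 5.92, 7.17 and -21.4 kb. No call changed under the block or pairing. A list gives 1 average per peak: weak signal under the limit of 3 is unseen, and that limit differs between lists.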
